A study of Homo sapiens with 4 samples.

Results

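The MAP kinase feedback genes examined here are 10 genes whose products damp signalling through the MAP kinases. They are the phosphatases DUSP1, DUSP4, DUSP5, DUSP6 and DUSP10, the Sprouty genes SPRY2 and SPRY4, the related SPRED1 and SPRED2, and PHLDA1. Members were taken by name from a preset list, found through 12 transcript accessions in the authors' deposited comparison, and joined to array probes by unique match of values. Of the 10 genes, 8 were joined to 10 of the 47323 probes, and 6 genes with 7 probes gave a signal above background and were tested among 13889 detected probes. SPRY4 and PHLDA1 had no joined probe.

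Transcript levels were measured 48 h after transfection of MDA-LM2, a human breast cancer line selected from MDA-MB-231 for spread to the lung. The 2 sRSE decoy samples received capped and polyadenylated RNA with tandem copies of an RNA element called sRSE, and the 2 scrambled control samples received scrambled RNA by the same lipid transfection. The decoy is meant to titrate away the cellular factor that binds the element, and the comparison asks which transcripts then differ. Both groups are 1 cell line, both were transfected, and untransfected cells were not analysed here. Whether replicates are separate cultures is not stated, so every p-value here reflects the variation among these 4 samples alone, possibly technical.

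Growth factor receptors pass their signal through RAS, RAF and MEK to the kinase ERK, while stress and cytokines act largely through p38 and JNK. Active kinases switch on genes for their own inhibitors, so transcripts of this kind are widely read as a gauge of pathway output. The dual-specificity phosphatases remove the activating phosphates from the threonine and tyrosine of the kinases, whereas Sprouty and Spred proteins act upstream, between receptor and RAF.

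Relative signals of 4 of the 6 tested genes differed between sRSE decoy and scrambled RNA on at least 1 probe. With each gene read by its brightest probe, 3 did, without DUSP6. DUSP6, the cytoplasmic phosphatase that acts mainly on ERK, rose 2.14-fold on 1 of its 2 probes (n = 2 arrays per group). SPRY2, a Sprouty inhibitor of receptor tyrosine kinase signalling, fell by 0.70 on the log2 scale, a 1.63-fold lower signal. DUSP1, an inducible nuclear phosphatase of p38, JNK and ERK, and SPRED1, which brings the RAS inhibitor neurofibromin to the membrane, were lower by smaller amounts, 1.32-fold and 1.26-fold. DUSP5 and SPRED2 did not pass. In all, 4 of 7 probes passed (57.1%), 1 higher and 3 lower, where 43.4% of all detected probes passed at an adjusted p of 0.05 (limma, Benjamini-Hochberg). Of all detected probes 21.5% passed as higher and 21.9% as lower, so the members' share lay not far from the background.

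The stretches before the annotated starts of the 4 genes that passed are shown because 3 of them were lower together and DUSP6 was the exception. Each is the 250 bases upstream of a RefSeq gene start (GRCh38.p14), written 5′ to 3′ on the gene's strand. For SPRY2, which has several listed starts, the one farthest upstream is shown. Capitals mark matches, on either strand, to the TATA box (TATAAA), the cyclic AMP response element (TGACGTCA) and its half-site (TGACG), the AP-1 site (TGANTCA), the GC box (GGGCGG), an ETS core (CCGGAA), the E-box (CACGTG), the CCAAT box (CCAAT) and the CArG box.
DUSP6, chr12:89352502-89352751, minus strand: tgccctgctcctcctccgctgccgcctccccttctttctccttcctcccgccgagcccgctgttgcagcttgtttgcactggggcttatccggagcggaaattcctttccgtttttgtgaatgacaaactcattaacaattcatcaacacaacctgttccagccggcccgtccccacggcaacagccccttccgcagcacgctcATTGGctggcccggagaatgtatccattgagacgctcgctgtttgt
SPRY2, chr13:80341127-80341376, minus strand: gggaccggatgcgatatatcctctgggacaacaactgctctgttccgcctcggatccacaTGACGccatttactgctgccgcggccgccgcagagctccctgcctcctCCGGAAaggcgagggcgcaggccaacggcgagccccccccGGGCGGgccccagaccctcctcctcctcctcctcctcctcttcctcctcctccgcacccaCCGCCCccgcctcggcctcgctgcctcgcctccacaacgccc
DUSP1, chr5:172771196-172771445, minus strand: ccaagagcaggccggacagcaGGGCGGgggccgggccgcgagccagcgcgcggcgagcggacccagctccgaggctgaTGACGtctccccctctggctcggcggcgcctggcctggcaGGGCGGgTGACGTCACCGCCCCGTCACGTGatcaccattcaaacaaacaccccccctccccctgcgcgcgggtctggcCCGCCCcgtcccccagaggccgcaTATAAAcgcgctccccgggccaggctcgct
SPRED1, chr15:38252586-38252835, plus strand: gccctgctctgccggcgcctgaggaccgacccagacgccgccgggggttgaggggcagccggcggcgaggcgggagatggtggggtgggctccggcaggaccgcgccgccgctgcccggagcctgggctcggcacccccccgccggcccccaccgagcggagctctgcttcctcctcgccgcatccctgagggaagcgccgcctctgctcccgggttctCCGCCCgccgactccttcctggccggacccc

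The 4 stretches shared few of these letters. DUSP1 carried a full cyclic AMP response element beginning 125 bases before the start, 4 half-sites of which the full element holds 2, an E-box that overlaps another half-site, 4 GC boxes and a TATA box at 30 bases. Among 35116 promoter stretches of the same length, 1.65% held the full element, 21.2% the half-site, 6.34% the E-box, 42.6% a GC box and 10.7% the TATA letters. SPRY2 held 1 half-site, 1 ETS core and 2 GC boxes, SPRED1 held 1 GC box, and DUSP6 held 1 CCAAT box on the opposite strand. An ETS core was found in 14.5% and a CCAAT box in 32.0% of all stretches. GC content was 57.2% for DUSP6, 70.4% for SPRY2, 74.4% for DUSP1 and 78.4% for SPRED1, against a median of 58.0% over all. Of the 8 members with a listed promoter, 6 held a GC box in at least 1 stretch, 3 a half-site, 3 a CCAAT box, 2 an ETS core, and 0 an AP-1 site or a CArG box, which stood in 6.57% and 1.16% of all stretches. DUSP10, SPRY2 and SPRED2 have several stretches each, whereas the shares over all count single stretches. The member counts are therefore not directly comparable with those shares.

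Median raw intensities were 81.3 to 83.9 on the decoy arrays and 76.3 to 77.5 on the scrambled arrays, and 13402 to 13849 probes per array lay above background. With 2 arrays in each group, array number sets the precision. The cell line was checked by its markers. CD44, LGALS1 and MMP1 were detected on all 4 arrays, the luminal genes ESR1, PGR, GATA3, FOXA1 and ERBB2 on none, and SPARC on none. Of the basal and epithelial genes, KRT8 was detected on all 4 arrays, at mean log2 signals of 10.54 with the decoy and 10.14 with scrambled RNA. CDH1, KRT14 and KRT18 were detected on none. VIM, AXL, CAV1, TNC, EPCAM and KRT5 had no joined probe and could not be checked. Among markers of other cells, CD14 (1 of 4 blood genes) and PECAM1 (1 of 6 fibroblast and endothelial genes) were detected on all 4 arrays, at mean log2 signals of 7.64 and 7.55 with the decoy against 7.98 and 6.77 with scrambled RNA, and their part in the results was not tested. The probe-to-gene join made 0.323% of its links by chance in shifted tables, so the name of any single probe carries that uncertainty.

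DUSP6 was read by 2 probes that disagreed. The probe joined to NM_001946 had log2 normalized intensities of 8.57 and 8.73 with the decoy, against 7.57 and 7.54 with scrambled RNA. Both decoy arrays lay above both scrambled arrays by far more than the replicates differed. Raw intensities of 502.5 and 503.6 with the decoy, against 225.1 and 205.6 with scrambled RNA, show the same separation before any normalization. The difference was 1.10 ± 0.10 (log2, SE; limma adjusted p = 4.55e-04; 95% interval 0.88 to 1.32), and 111 of the 13889 detected probes (0.799%) had a larger one.

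The other DUSP6 probe, joined to NM_022652, read 12.47 and 12.43 with the decoy, against 12.56 and 12.49 with scrambled RNA. Its groups lay apart by less than 0.1 on the log2 scale, and the difference of -0.08 ± 0.09 did not pass (limma adjusted p = 0.497; 95% interval -0.28 to 0.12). NM_022652 is the RefSeq record of a shorter DUSP6 transcript variant, but the bases that either probe reads were not available for comparison, so which transcripts each one sees is not settled here. The 2 log2 fold changes differed by 1.18, against a median of 0.34 over 312 genes with several detected probes, and 7 genes had a larger gap. Averaging the probes gave 0.51 (limma adjusted p = 0.003 over genes), a value that neither probe showed.

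DUSP1 read 9.37 and 9.26 log2 units with the decoy, against 9.61 and 9.82 with scrambled RNA. The groups did not overlap after normalization, but the raw intensities of 817 and 691 with the decoy overlapped those of 800 and 844 with scrambled RNA. The difference was -0.40 ± 0.10 (log2, SE, n = 2 per group; limma adjusted p = 0.0181). It did not pass without sRSE decoy replicate 2 (-0.34, limma adjusted p = 0.097) or scrambled control replicate 2 (-0.29, limma adjusted p = 0.0753), nor without a detection filter (limma adjusted p = 0.0927).

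DUSP5, a nuclear phosphatase selective for ERK, read 11.73 and 11.75 with the decoy, against 11.70 and 11.65 with scrambled RNA. All 4 arrays lay within about 0.1 log2 units of one another. The difference was 0.06 ± 0.09 (limma adjusted p = 0.573; 95% interval -0.14 to 0.26), and its sign turned to -0.12 when arrays were scaled over probes detected on all of them and to -0.034 with median scaling.

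DUSP4, a nuclear phosphatase related to DUSP1, and DUSP10, which prefers p38 and JNK, were not well above background on any array at the detection threshold of 0.01, so no fold is given. Raw intensities of DUSP10 were 156 and 141 with the decoy, against 82.1 and 90.6 with scrambled RNA. The detection p of DUSP10 was 0.01039 and 0.01299 with the decoy, just outside the threshold, against 0.11429 and 0.04545 with scrambled RNA. DUSP4 read 112 and 113 with the decoy, against 72.8 and 68.2 with scrambled RNA, on the probe of NM_001394. On the probe of NM_057158 DUSP4 read 133 and 135 with the decoy, against 101 and 88.7 with scrambled RNA. On all 3 probes both decoy arrays lay above both scrambled arrays. Groups did not overlap, in either direction, on 74.2% of all detected probes, and median raw intensity was also higher on the decoy arrays. These are signals at background level, and the size of any difference cannot be read from them.

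**Figure D1:**
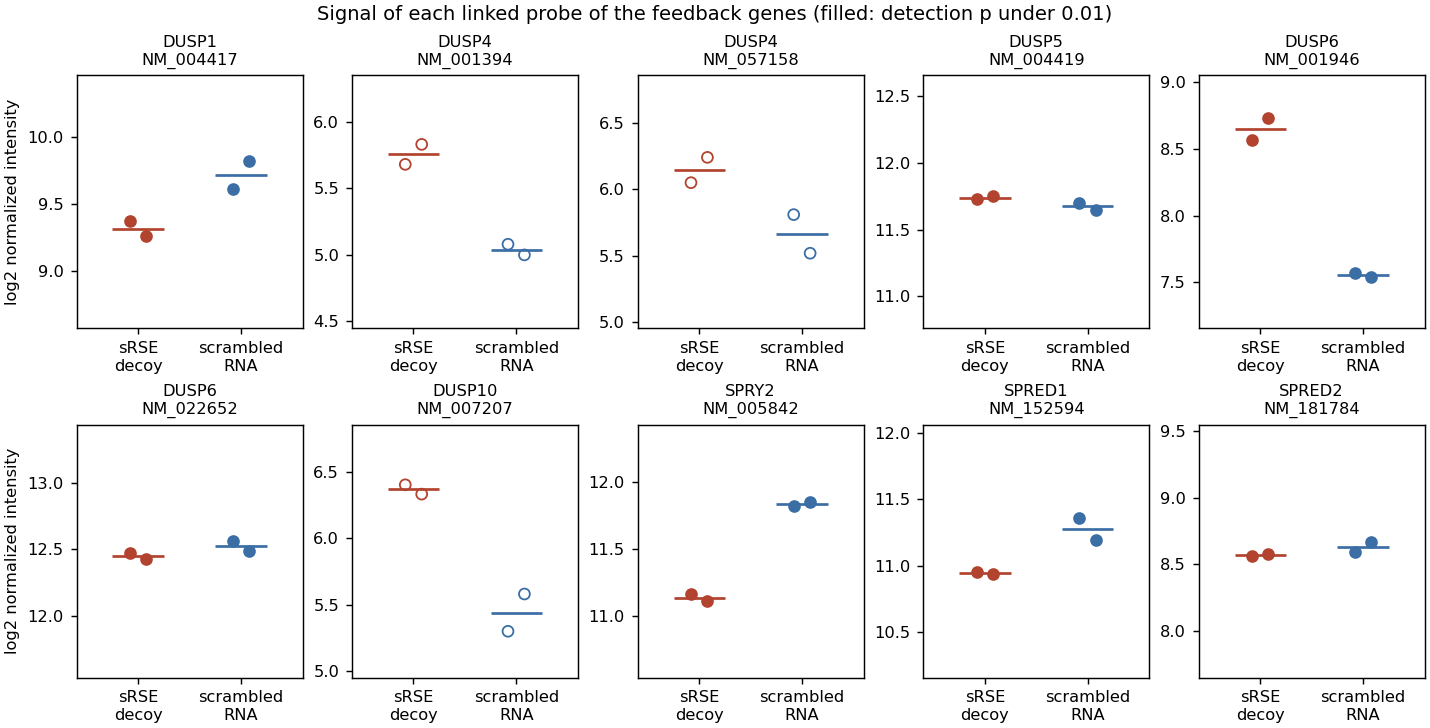
Log2 normalized intensity of each of the 10 joined probes on each array, with sRSE decoy on the left and scrambled RNA on the right of every panel. Bars are group means of 2 arrays, filled points have a detection p under 0.01, every panel spans the same log2 range, and the widest gap among filled points is that of DUSP6 (NM_001946).

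SPRY2 carried the largest fall among the members. Its log2 signal was 11.16 and 11.11 with the decoy, against 11.82 and 11.85 with scrambled RNA. The replicates of each group lay within 0.1 of each other, and the raw intensities of 2570 and 2228 with the decoy, against 3693 and 3449 with scrambled RNA, did not overlap either. The difference was -0.70 ± 0.09 (log2, SE; limma adjusted p = 0.00102; 95% interval -0.90 to -0.50), and 403 detected probes (2.9%) lay lower.

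SPRED1 read 10.95 and 10.94 log2 units with the decoy, against 11.36 and 11.19 with scrambled RNA. The groups did not overlap after normalization, and most of the spread lay between the scrambled arrays. The raw intensities of 2247 and 2016 with the decoy overlapped those of 2709 and 2184 with scrambled RNA. The difference was -0.33 ± 0.10 (log2, SE, n = 2 per group; limma adjusted p = 0.0249). SPRED1 did not pass without scrambled control replicate 1 (-0.24, limma adjusted p = 0.112), sRSE decoy replicate 1 (-0.34, limma adjusted p = 0.0834) or sRSE decoy replicate 2 (-0.33, limma adjusted p = 0.0909), nor without a detection filter (limma adjusted p = 0.103).

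SPRED2, a close relative of SPRED1, read 8.56 and 8.58 with the decoy, against 8.59 and 8.67 with scrambled RNA. Its difference of -0.06 ± 0.09 did not pass (limma adjusted p = 0.618; 95% interval -0.26 to 0.14). The raw intensities ran the other way, 500.3 and 460.7 with the decoy against 410.9 and 397.3 with scrambled RNA, and the sign became 0.062 with median scaling.

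On all 7 tested probes the decoy arrays lay entirely above or entirely below the scrambled arrays, which was so for 74.2% of all detected probes and 75.5% of genes read by their brightest probe. Across these probes the median log2 fold change was -0.08, against -0.02 for all detected probes, and the median absolute value was 0.33 against 0.25.

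**Figure D2:**
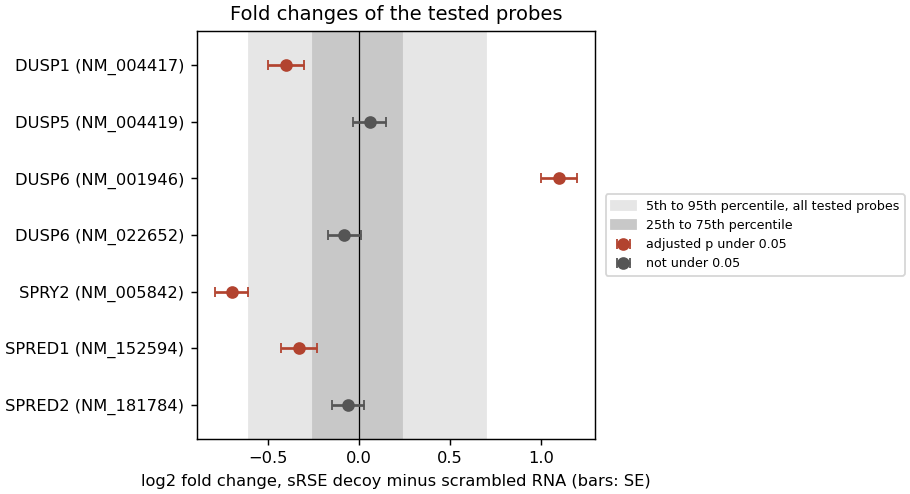
Log2 fold change, sRSE decoy minus scrambled RNA, of the 7 tested probes, with SE from limma as bars. Grey bands show where all 13889 detected probes lie, and DUSP6 (NM_001946) at 1.10 and SPRY2 at -0.70 stand outside the wider band.

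SPRY4, a Sprouty gene, and PHLDA1, which encodes a pleckstrin homology-like domain protein induced by growth factors, could be followed only through the authors' deposited table. That table gives 1 value per accession, which matches a log10 ratio of group means of inverse hyperbolic sine values and is much smaller than a log2 fold change. In the authors' deposited table SPRY4 stands at 0.00957 (percentile 92.8 of 39747 accessions) and PHLDA1 at 0.00688 (percentile 88.7), both on the higher side with the decoy and with no replicate error. Neither value matches a single probe, so what was read or combined to give it, and whether that signal lay above background, is not known. The same authors' deposited table places DUSP6 at 0.041 (percentile 99.9) for NM_001946 and at -0.00274 (percentile 30.3) for NM_022652, and SPRY2 at -0.0266 (percentile 0.423). DUSP1 stands at -0.0161 (percentile 2.58) and SPRED1 at -0.0132 (percentile 3.91) in the authors' deposited table, which comes from the same arrays. These percentiles are over all accessions, detected or not. Among detected probes alone, the log2 fold changes of DUSP1 and SPRED1 stood at percentiles 14.2 and 18.4.

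**Figure D3:**
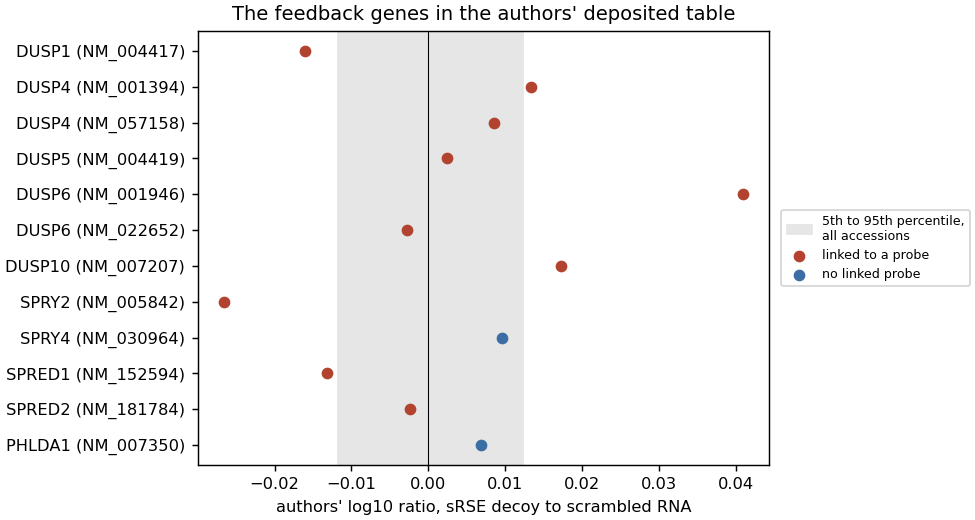
The authors' log10 ratio, sRSE decoy to scrambled RNA, for each of the 12 accessions of the feedback genes. The grey band runs from the 5th to the 95th percentile of all accessions, detected or not, so it is not a band of detected probes. SPRY2, DUSP1 and SPRED1 lie below the band, and DUSP6 (NM_001946) lies above it. DUSP10 and DUSP4 (NM_001394) are also drawn above it, but their probes were above background on no array, so their place rests on background signal.

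The rest of the pathway was read through 6 lists of genes, in which each gene was represented by its brightest detected probe. Over all 6480 genes measured in that way, 42.4% passed, 20.4% as higher and 22.0% as lower, with a median log2 fold change of -0.03. Of the receptor tyrosine kinases and their ligands, 6 of 20 were measured, of which 1 was higher, 1 was lower and 4 were not called. The list median was 0.11, and -0.04 when arrays were scaled on probes that every array detected. The receptor EPHA2, which ERK signalling is known to induce, rose, at 10.46 and 10.40 log2 units with the decoy against 9.65 and 9.91 with scrambled RNA. Its difference was 0.65 ± 0.11 (limma adjusted p = 0.0029). The angiogenic factor VEGFA was lower, at -0.34 ± 0.11 (limma adjusted p = 0.0457), and did not pass without scrambled control replicate 1 (-0.19), sRSE decoy replicate 1 (-0.31) or sRSE decoy replicate 2 (-0.37). VEGFA also lost its call with median scaling (-0.23), with cyclic loess (-0.31) and when arrays were scaled on probes that every array detected (-0.32). The other tested VEGFA probe read -0.36, and the mean of both read -0.35 (limma adjusted p = 0.0119 over genes). The epidermal growth factor receptor EGFR read 0.24 ± 0.09 and its ligand HBEGF 0.19 ± 0.10, and neither passed (limma adjusted p = 0.06 and 0.158), although EGFR passed under 6 alternative settings, cyclic loess among them (0.25, limma adjusted p = 0.0493).

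Within the RAS-RAF-MEK-ERK cascade 12 of 26 genes were measured, 2 higher, 2 lower and 8 not passing, with a median of 0.00, or -0.06 when arrays were scaled on probes that every array detected. The phosphatase PTPN11, which carries receptor signals to RAS, and the kinase ARAF were lower, at -0.47 ± 0.09 and -0.46 ± 0.09 (log2, SE; limma adjusted p = 0.00444 and 0.00516). SOS2, which loads RAS with GTP, was higher by 0.54 ± 0.11 (limma adjusted p = 0.00727). Its scrambled arrays read 6.70 and 6.42, close to their lowest signals above background of 6.49 and 6.375. Without background correction the SOS2 difference was 0.37. MKNK1, a kinase activated by ERK and p38, was higher by 0.42 ± 0.09 (limma adjusted p = 0.00953). In the p38 and JNK cascades 13 of 24 were measured, 3 higher, 1 lower and 9 not passing, with a median of 0.03. The p38 kinase MAPK14 was not well above background in scrambled RNA and was at least 1.17-fold higher with the decoy. The test (limma adjusted p = 0.00163) was of its full log2 difference of 0.76, which uses those background signals. MAPK14 was kept only through the decoy arrays, and was not tested when either of them was left out. It is 1 of the 3 counted as higher. MAP3K1, an upstream kinase of JNK, read -0.53 ± 0.09 and was lower (limma adjusted p = 0.00285). GADD45B, a stress-induced activator of these cascades, and the p38 substrate MAPKAPK2 were higher, at 0.36 ± 0.09 and 0.39 ± 0.10 (limma adjusted p = 0.012 and 0.0144), and neither passed without sRSE decoy replicate 2 (0.36 and 0.30).

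Among other MAP kinase and dual-specificity phosphatases, 10 of 18 were measured, 0 higher, 2 lower and 8 not passing. The list median of -0.10 became 0.08 with median scaling and 0.00 when arrays were scaled on probes that every array detected. DUSP3, a small phosphatase of ERK and JNK, was lower at -0.35 ± 0.09, and DUSP23 at -0.30 ± 0.09 (limma adjusted p = 0.0146 and 0.0281). DUSP3 did not pass without sRSE decoy replicate 1 (-0.33), and DUSP23 passed in none of the fits that left out 1 array (-0.26 to -0.35) nor with median scaling (-0.31). DUSP19 and DUSP14 both read 0.23 ± 0.09 and did not pass (limma adjusted p = 0.0722 and 0.0797). Both passed on quantile-normalized intensities without background correction (0.22 each, limma adjusted p = 0.0416 and 0.0453). On the authors' normalized intensities DUSP19 passed and DUSP14 did not (limma adjusted p = 0.0397 and 0.0515).

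Of other negative regulators of receptor and RAS signalling, 8 of 18 were measured, 2 higher, 1 lower and 5 not passing, with a median of 0.17. SPRY1, the paralogue of SPRY2, rose, at 10.15 and 10.28 log2 units with the decoy against 9.13 and 9.19 with scrambled RNA. Its difference was 1.06 ± 0.09 (limma adjusted p = 4.63e-04), opposite in sign to that of SPRY2. RASAL2, a RAS GTPase-activating protein, was not well above background in scrambled RNA and was at least 1.35-fold higher with the decoy. The test (limma adjusted p = 0.00107) was of its full log2 difference of 0.81, which uses those background signals. RASAL2 too was kept only through the decoy arrays, and was not tested when either of them was left out. It is 1 of the 2 counted as higher. PHLDA2, a relative of PHLDA1, was lower at -0.64 ± 0.09 (limma adjusted p = 0.00151), and the pseudokinase TRIB3 read -0.25 ± 0.09, which did not pass (limma adjusted p = 0.0518) but did among probes detected on all 4 arrays (limma adjusted p = 0.0408).

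Among transcription factors and targets downstream of ERK, 16 of 28 were measured, 5 higher, 3 lower and 8 not passing. Their median was -0.05, a value that became 0.01 with median scaling. FOSL1, an AP-1 subunit that ERK both induces and stabilises, rose, at 10.35 and 10.40 with the decoy against 9.26 and 9.43 with scrambled RNA, a difference of 1.03 ± 0.10 (limma adjusted p = 5.41e-04). The matricellular gene CCN1 and the ERK-activated factor ELK1 were higher, at 0.35 ± 0.09 and 0.38 ± 0.10 (limma adjusted p = 0.0142 and 0.0171). ZFP36, which promotes decay of AU-rich mRNAs, was lower at -0.46 ± 0.13 (limma adjusted p = 0.0223). CCN1 lost its call without sRSE decoy replicate 1 (0.36) or without replicate 2 (0.34), with median scaling (0.23, limma adjusted p = 0.164) and when arrays were scaled on probes that every array detected (0.14, limma adjusted p = 0.207). ELK1 did not pass without either of these (0.39 and 0.38) or scrambled control replicate 2 (0.28), and ZFP36 did not pass without scrambled control replicate 1 (-0.27), sRSE decoy replicate 1 (-0.42) or 2 (-0.51), nor with median scaling (-0.31, limma adjusted p = 0.0869). With no detection filter, which tests more probes, DUSP3, DUSP23, SOS2, MKNK1, GADD45B, MAPKAPK2, VEGFA, CCN1, ELK1 and ZFP36 did not pass. With all 6 lists, 23 genes passed, and 11 passed without sRSE decoy replicate 1 and 11 without replicate 2.

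**Figure D4:**
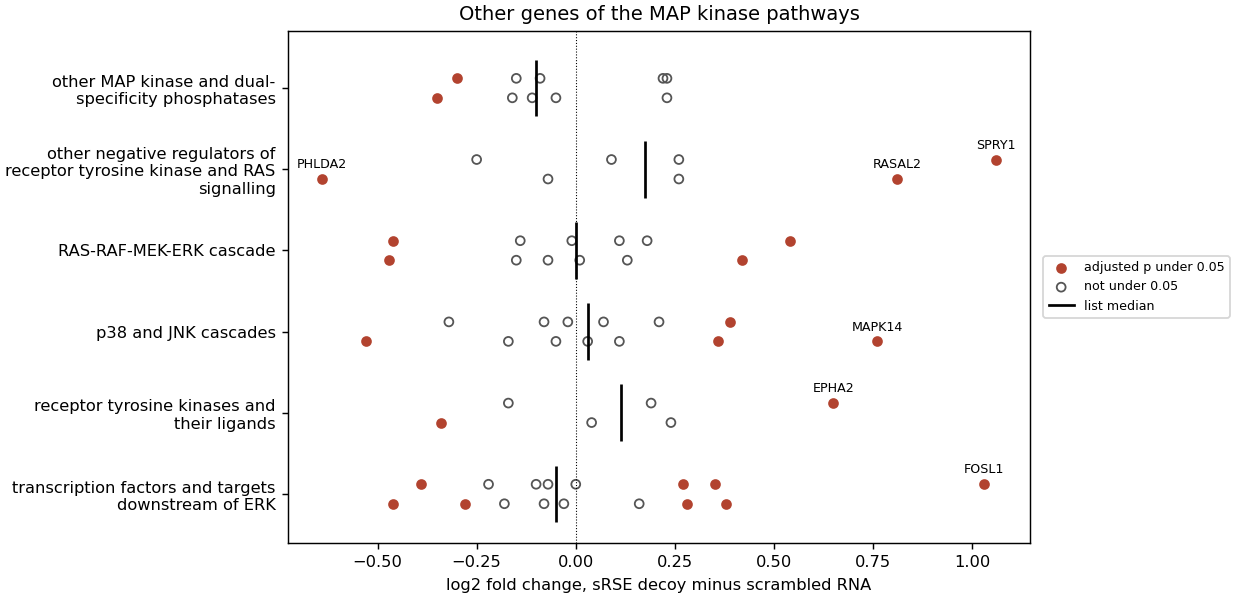
Log2 fold change, sRSE decoy minus scrambled RNA, of every measured gene of the 6 lists, with filled points for an adjusted p under 0.05 and a vertical bar at each list's median. Medians lie between -0.10 and 0.17, and SPRY1 at 1.06 and FOSL1 at 1.03 lie farthest to the right.

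Across 14 alternative settings SPRY2 passed in all 14, from -0.88 to -0.67, and DUSP6 (NM_001946) in all 12 that kept its probe, from 0.92 to 1.24. DUSP1 passed in 11 of 14 and SPRED1 in 10 of 14. DUSP5 and SPRED2 passed in 0 of 14, and DUSP6 (NM_022652) in 2, namely when arrays were scaled on probes that every array detected (-0.28, limma adjusted p = 0.0335) and as the average of both DUSP6 probes.

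**Figure D5:**
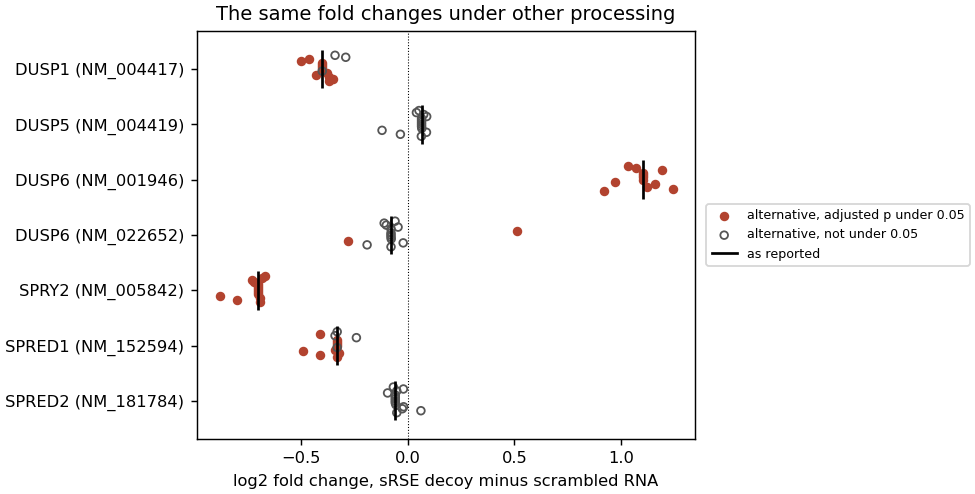
Log2 fold change, sRSE decoy minus scrambled RNA, of the 7 tested probes as reported (black bar) and under each alternative setting (points, filled where the adjusted p is under 0.05). All points of SPRY2 and of DUSP6 (NM_001946) are filled and lie on 1 side of 0.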

How the data were processed

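Biotin-labelled total RNA was hybridised to Illumina beadchips, per the labels' protocols. The raw intensities deposited by the authors are mean bead signals with a detection p-value per probe, per the file headers. On the array of sRSE decoy replicate 1, 3 cells of the detection column repeat the signal, and none belongs to a gene named here. They were filled with the median of the 5 probes nearest in signal. Normalized intensities deposited by the authors were made with lumi, a package named in the submitters' processing notes. The authors' comparison table is labelled a log fold change of unstated base, per the file headers, and was treated as a score.

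No table pairs probes with genes here. The authors' score was recomputed per probe from the normalized intensities with 3 fitted constants, and 32476 of 39747 accessions (81.7%) were linked to 1 probe within 6e-10. When the comparison was shifted 8 times, chance gave 105 links on average, and on simulated data 2 of 33169 links were wrong. Linked accessions were named through RefSeq (GRCh38.p14): 16745 have a symbol, over 15359 genes.

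Raw intensities were background-corrected by normexp (negative controls inferred from detection p-values, offset 16), quantile normalized and log2 transformed (the steps of neqc in limma 3.58.1, under R 4.3.3). A probe was kept where its detection p was below 0.01 on 2 or more arrays. The groups were compared by lmFit and eBayes with no covariate, and p-values were adjusted over all detected probes (Benjamini-Hochberg, threshold 0.05). A probe above background in 1 group only is given as a minimum fold, using for each dim array its own lowest signal above background. The fit was tested on simulated data. Members, lists and tests were chosen with earlier results of these data known. By rule, all members were named, with up to 4 genes of each list by smallest p. One listed cell line marker is not reported here. The 14 alternatives changed the scaling, the filter, the reading of genes, the model or the arrays. Scaling was by quantiles without background correction, by median, by cyclic loess, over probes detected on all 4 arrays, or as deposited by the authors. The filter was dropped or required detection on all 4 arrays. Genes were read by the brightest probe or by the mean of their probes. Replicate number was a block, or each array was left out in turn.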

Additional observations from a re-analysis of the deposited data

How the results depend on the processing

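The number of detected probes that passed, 6029, became 3498 without a detection filter, 2889 with 1 probe per gene and 2892 with the mean of a gene's probes, which test fewer features, and 3786 to 4918 with 1 array left out. Without sRSE decoy replicate 1 it was 3896, and without sRSE decoy replicate 2 it was 3786. Of the calls 49.4% were higher with the decoy, which became 62.3% with median scaling. The 4 member probes that passed became 2 without a detection filter and 2 to 3 with 1 array left out, with 2 left without sRSE decoy replicate 2. The 23 list genes became 9 without a detection filter and 11 to 21 with 1 array left out. MAPK14 and RASAL2 were not tested in the fits that left out a decoy array, so their calls are missing there. The cause of the other changes was not tested. Signs turned for DUSP5 (-0.034 with median scaling, -0.12 when arrays were scaled on probes that every array detected), SPRED2 (0.062 with median scaling) and the brighter DUSP6 probe (0.51 as the mean of its probes, which includes the probe that rose). Of the other values of single member probes under an alternative, 84 kept direction and call, 7 lost the call and 1 gained it. For named list genes the counts were 283, 35 and 12, with 0 reversed. With the replicate number as a block the counts were 5902 probes, 4 member probes and 23 list genes. Deviations of same-numbered samples were not correlated across probes after normalization (r = -0.00813). Normalization removes array-wide shifts, so this value cannot show whether same-numbered samples were handled together. The median log2 fold change of all detected probes stayed between -0.0366 and 0.0451 under the scalings tried. Each scaling brings the arrays to a like level, so these medians cannot show whether signal shifted as a whole. Signals near background limit what can be said of DUSP4 and DUSP10. The member counts above cover only the 7 tested probes. Without a detection filter the probes of DUSP10 and DUSP4 are tested too. DUSP10 (limma adjusted p = 0.0176) and 1 of the 2 DUSP4 probes (0.0192, against 0.0973 for the other) then passed, on background signal.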
